A study of Dunaliella salina with 9 samples.

Results

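The response of the green alga Dunaliella salina to a step from 150 to 600 µmol photons m−2 s−1 is described here over 32410 transcript clusters of the 76875 listed in the deposited tables. A cluster was included if it had at least 10 counts in at least 3 of the 6 libraries compared, whatever its change. The cells kept at 150 (LL, 3 libraries) and those moved to 600 µmol photons m−2 s−1 (ML, 3 libraries) shared a culture history of 22 °C, 16 h of light at 150 µmol photons m−2 s−1 and 8 h of dark. Both started the treatment in new medium from mid-exponential cultures. A further 3 libraries, from cells moved to 1500 µmol photons m−2 s−1 (HL), entered the scaling and the spread of the fit, and their levels are set beside the others. They also entered the condition of whole counts in all 9 libraries, and contrasts of HL with LL or ML are given for some named clusters. For the strain, the time from the light step to the harvest and the hour of the light cycle, the sources used here give nothing. Whether the 3 libraries of a group stem from separate cultures is not said in the labels, and p-values therefore measure only the spread between these samples, part of which may be technical.

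Algae moved to stronger light are known to acclimate over hours to days by making smaller light-harvesting antennae, by dissipating excess energy through carotenoids of the xanthophyll cycle and by raising the capacity for carbon fixation and repair of photosystem II. Dunaliella is known in addition for storing carotenoids and glycerol. The files pair none of their cluster identifiers with a gene, and 0 of the 76875 matched an entry of the RefSeq gene table (assembly Dunsal1 v. 2), so that neither these pathways nor the identity of the cells could be checked against marker genes. The clusters are therefore described by level, length, size of change and position in the 3 light groups, and 4 are given by identifier. For the same reason no sequence is printed.

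Library totals ran from 17778225 to 18914255 counts in LL and from 18451243 to 19535140 in ML, and the clusters included held 99.3% to 99.6% of these counts. The libraries of both groups were about equally reproducible: the biological coefficient of variation, the spread between libraries beyond counting error, was 0.241 within LL and 0.231 within ML. The second ML library differed from the other 5 in its rare clusters. It had 184 clusters with at least 10 counts that no other of the 9 libraries held with more than 1 count, while the other LL and ML libraries had 15 to 95. Levels are given as CPM, counts per 1000000 counts of the included clusters after TMM scaling. They are relative to the RNA sequenced, and tell nothing of the number of cells or the RNA per cell. A lower level can therefore also reflect rises of other clusters.

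At 600 µmol photons m−2 s−1 a large part of the transcriptome was at another level than at 150, and the rises called were larger than the falls. Of the 32410 clusters, 5984 were higher in ML and 6813 lower (18.5% and 21% of those tested), together 39.5%. Which direction had more calls depended on the scaling and the unit, since upper-quartile factors gave 6654 higher and 5957 lower, library totals alone 6367 and 6118, and limma on log2(FPKM + 1) 7602 and 6727. A cluster was called where the quasi-likelihood F-test of edgeR gave a Benjamini-Hochberg adjusted p below 0.05. Among the clusters called higher the median log2 fold change was 0.96, and among those called lower −0.60. At least 2-fold changes were called for 2851 rising clusters (8.8%) and 1339 falling ones (4.13%), and at least 4-fold changes for 723 and 224. These counts and medians include clusters that met the inclusion condition mainly through the group where they were high. Among the 24802 clusters with at least 10 counts in all 6 libraries, 1890 rises and 1031 falls of at least 2-fold were called. The 4-fold counts also include clusters at 0 in a whole group, whose fitted fold depends on the prior count. Of the rises called, 5942 had all 3 ML libraries above all 3 LL libraries, and 6755 of the falls had all 3 below. Such separation was met by 9219 clusters upward (28.4%) and 8684 downward (26.8%), called or not. Over all clusters the 5th and 95th percentiles of the log2 fold change were −1.14 and 1.70, and among clusters with a mean of at least 10 CPM they were −0.96 and 1.18.

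**Figure D1:**
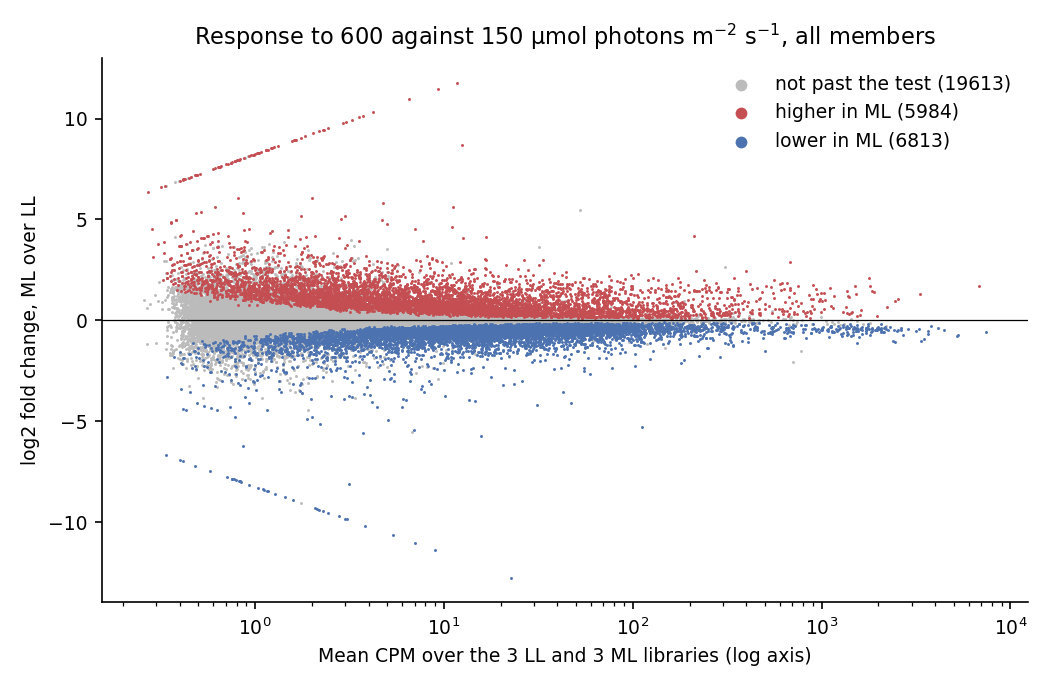
Log2 fold change of ML over LL (vertical axis) against mean CPM over the 3 LL and 3 ML libraries (horizontal log axis), 1 point per cluster, with the 5984 clusters called higher in red, the 6813 called lower in blue and the 19613 others in grey. The thin oblique lines of points far from 0 are clusters listed at 0 in all 3 libraries of a group, whose fitted fold depends on the prior count of the fit.

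The transcripts that rose took over a large part of the RNA. The clusters called higher held 19.1%, 19.1% and 18.8% of all counts in the 3 LL libraries and 34.5%, 35.3% and 34.6% in the 3 ML libraries. Those called lower held 58.6%, 58.0% and 59.7% in LL and 42.5%, 41.5% and 42.8% in ML. The 19613 clusters not called kept a similar part, 21.8% ± 0.66 in LL and 22.3% ± 0.25 in ML (SD, n = 3 each). These sums were made over clusters chosen by the same comparison and are a description. In HL, the clusters called higher in ML held 19.4% ± 0.28 and those called lower 60.2% ± 0.57 (SD, n = 3 each), close to the values at 150. The 2851 clusters with at least 2-fold rises went from 5.11% ± 0.059 of the counts in LL to 14.6% ± 0.083 in ML, with 6.58% ± 0.13 in HL (SD, n = 3 each).

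The direction of the response went with the level of the transcript. Clusters were divided into 10 equal classes by mean CPM over the 6 libraries. In the lowest class (median 0.553 CPM) 291 clusters were higher and 72 lower in ML. Of its 3241 members, 835 had at least 10 counts in all libraries of a single group and in none of the other. Its calls and median therefore partly follow from the condition for inclusion, and neither was computed without these members. In the class with a median of 2.02 CPM, which had 29 such members, 540 clusters were higher and 299 lower. In the highest class (median 88.9 CPM) the numbers were 945 and 1516. Medians of the log2 fold change were 0.36, 0.30, 0.25, 0.21 and 0.14 in the lower 5 classes and −0.07, −0.12, −0.15 and −0.14 in the upper 4. In the remaining class, the sixth from below, it was 0.01, with 674 clusters higher and 677 lower. The median of all clusters with a mean of at least 10 CPM was −0.13 and lay between −0.19 and −0.02 in every alternative tried. The median of the lowest class was above 0 in each of them but the removal of each library's abundance trend, which by construction takes such a pattern out and gave −0.20, with 101 clusters higher and 173 lower. Without ML library 1, 2 or 3, the lowest class had 166, 141 and 147 clusters higher and 115, 63 and 67 lower.

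**Figure D2:**
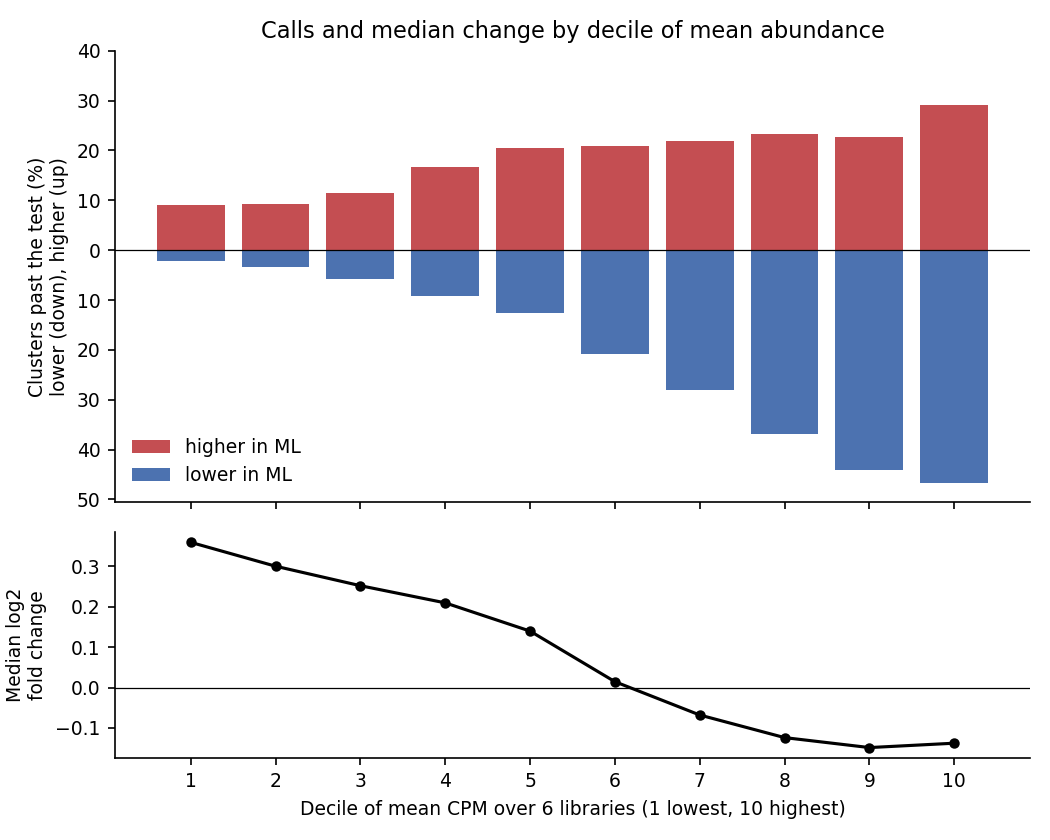
Upper panel, percentage of clusters called higher (red, upward) and lower (blue, downward) in ML than in LL in each of 10 equal classes of mean CPM; lower panel, median log2 fold change of the class. Calls of lower clusters increase from 2.22% to 46.8% across the classes, calls of higher clusters from 8.98% to 29.2%, and the median passes from 0.36 to −0.14. The values of the lowest class include clusters that met the condition for inclusion through a single group.

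Precision and the condition for inclusion also changed along the same classes. The standard error of the fold changes had a median of 0.63 in the lowest class and 0.06 in the highest (log2), and the share of clusters called rose from 11.2% to 75.9%. The median size of a called change fell from 2.15 to 0.48 on the log2 scale, so that rare clusters entered the calls only with large changes. The condition for inclusion acted on the lowest class: 5344 clusters with a mean in its range did not meet it, and 835 of its members had at least 10 counts in all libraries of a single group and in none of the other. In the next class 114 clusters failed and 245 members entered through a single group, and in the one after it 38 and 61. With the abundance trend of each library removed, the medians of 0.30 and 0.25 in these classes turned to −0.10 and −0.04.

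More clusters had at least 10 counts in the ML libraries than in the LL libraries. At least 10 counts in all 6 libraries were seen for 24802 clusters, of which 5021 were called higher and 6502 lower. A further 980 clusters reached 10 counts in all 3 ML libraries and in no LL library, and 213 in all 3 LL libraries and in no ML library. These had to differ through the way they entered, so nothing is concluded from their calls, nor from their numbers at unequal library totals. Such clusters are nevertheless part of the counts of calls given above, with 516 of the 980 higher and 128 of the 213 lower. The 980 were rare, with median levels of 0.232 CPM in LL, 0.882 in ML and 0.329 in HL. The 213 stood at 0.947 CPM in LL, 0.210 in ML and 1.12 in HL. All 76875 clusters listed were also counted after each library had been thinned to 17778144 counts. At least 10 counts were held by 30451, 30304 and 29727 of them in LL, and by 32038, 33207 and 32189 in ML. The ML libraries lay above the LL libraries without overlap (difference 2317, exact two-sided permutation p = 0.1, adjusted p = 0.15 over 12 measures), with a difference of 1953 when the second ML library was left out. Among the included clusters alone the difference was smaller, at 1362 (exact two-sided permutation p = 0.1). With 3 libraries against 3, 0.1 is the smallest p possible.

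Transcripts listed at 0 in all 3 libraries of a group numbered 78 for LL and 35 for ML. Nearly all of them carried estimated counts with decimals in at least 1 library: whole counts in all 9 libraries were found for 1 of the 78 and 0 of the 35, against 40.7% of all clusters included. Decimals can arise when a counting program divides reads among similar sequences, which was not tested here. The most abundant of the 35 had 29.7, 54.9 and 52.1 CPM in LL (559 to 1080 counts), 0 in each ML library and 175, 158 and 161 CPM in HL. Against a floor of 3 counts over the 3 ML libraries it was at least 926-fold lower in ML than in LL. The most abundant of the 78 had 18.1, 21.0 and 16.8 CPM in ML, 0 in LL and 4.97, 6.004 and 1.71 CPM in HL, which is at least 349-fold higher in ML than in LL by the same floor taken over LL. Such bounds cover counting error only. Without the clusters at 0 in a whole group, at least 8-fold changes were called for 150 rising and 68 falling clusters.

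Among the clusters that took the most reads, calls of lower clusters prevailed. Of the 100 clusters with the highest mean CPM, 17 rose and 78 fell in ML, with a median log2 fold change of −0.41, against 0.04 for all clusters. Over all clusters 18.5% were called higher and 21% lower, and in the highest abundance class 29.2% and 46.8%. The median standard error was 0.079 in the 100 and 0.217 over all clusters (log2), so that smaller changes could be called. Among the changes of at least 2-fold in these 100, however, 9 were rises and 4 were falls, close to the 8.8% and 4.13% of all clusters. The next ranks were more even, since 355 of the first 1000 rose and 450 fell, with −0.09 as the median. The 10 at the top comprised 1 rise and 9 falls, and in each of them all 3 ML libraries lay on the same side of all 3 LL libraries. Such separation was met by 28.4% of all clusters upward and 26.8% downward.

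The 1 rise of the 10, second in rank, was the cluster with the highest FPKM (fragments scaled to length and depth) of all. It had 3323, 2899 and 3385 CPM in LL and 10847, 9144 and 11157 CPM in ML (log2 fold change 1.70, SE 0.10, edgeR adjusted p = 2.58e-06). In HL it stood between, at 6811, 7961 and 7021 CPM. It alone made up 0.330% of all counts in LL and 1.101% in ML, and 3.98% and 12.3% of the summed FPKM. The FPKM share depends on a length of only 81.0 bases implied by its count and FPKM. All its counts were whole.

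The cluster with the most reads of all, of 1309 implied bases, fell from 10122, 7546 and 8993 CPM in LL to 5804, 5733 and 6132 in ML (log2 fold change −0.59, SE 0.11, edgeR adjusted p = 0.00285). It was at 17356, 21644 and 19313 CPM in HL, so that the order of the 3 groups was ML, LL, HL with no overlap between neighbours. The third in rank had the longest implied length of the 10, 9696 bases, and went from 7519, 6407 and 5765 CPM to 4021, 4237 and 3610 (log2 −0.73, SE 0.12). It stood at 12676, 15973 and 15554 CPM in HL. The largest fall of the 10 was that of the tenth in rank, from 4565 ± 459 to 2411 ± 63.6 CPM (SD, n = 3 each, log2 −0.92, SE 0.08), with 4572 ± 413 CPM in HL. The other 6 had log2 fold changes from −0.75 to −0.27. The smallest of these, at rank 7 with 3804, 4006 and 4738 CPM in LL and 3774, 3070 and 3530 in ML, was close to the threshold (edgeR adjusted p = 0.0463). By edgeR its adjusted p was 0.0656 and 0.138 without LL library 2 or 3, and 0.137 and 0.0851 without ML library 2 or 3. Without ML library 2 the call of the cluster at rank 6 was lost too (edgeR adjusted p = 0.0559). With upper-quartile factors, filterByExpr, the 6 libraries only or the replicate block, 8 of the 9 falls were called.

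**Figure D3:**
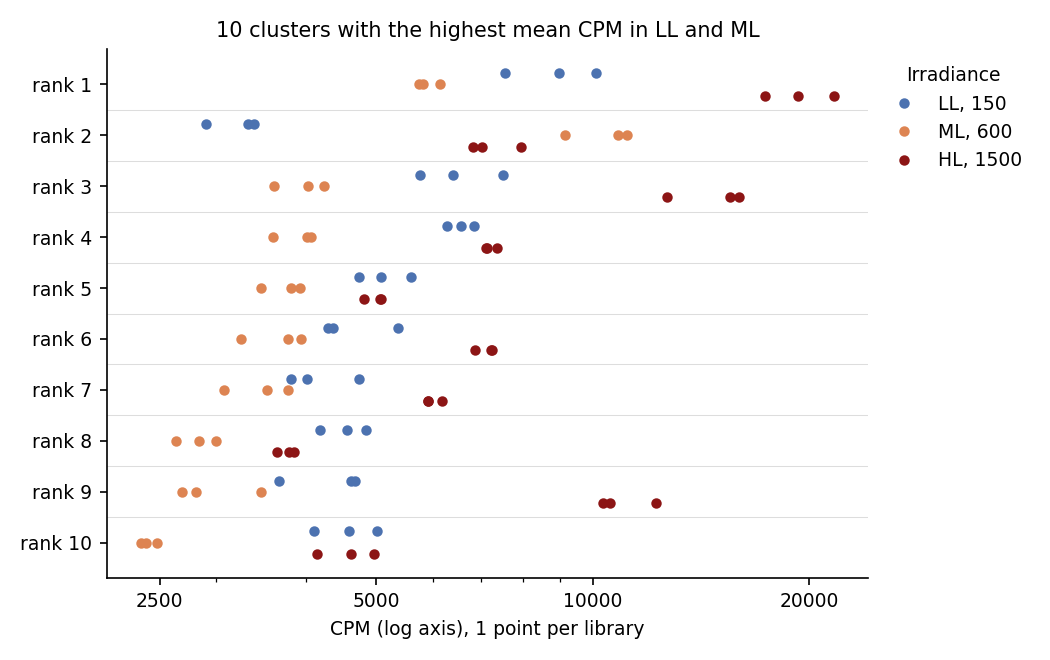
CPM (horizontal log axis) of the 10 clusters with the highest mean CPM over LL and ML, 1 point per library, in LL (blue), ML (orange) and HL (dark red). In 9 of the 10 the ML libraries are the lowest of the LL and ML libraries, and at rank 2 they are the highest of all, at 9144 to 11157 CPM.

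The 4 clusters given by identifier were taken among the 4486 with whole counts in all 9 libraries and a mean of at least 10 CPM, of which 1037 were called higher and 2062 lower in ML without overlap of the libraries. They are the 2 rises and 2 falls with the smallest p, so that their clear separation follows from the choice. Each kept its call and its direction under every alternative.

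Cluster-5009.33224 rose from 127, 118 and 122 CPM in LL to 664, 668 and 693 CPM in ML (log2 fold change 2.46, SE 0.04, edgeR adjusted p = 2.27e-08). It was at 1290, 1335 and 1341 CPM in HL and was thus higher at each step, by 0.97 on the log2 scale from ML to HL (SE 0.04). In FPKM, which takes the implied length of 2473 bases into account, it went from 51.1 ± 3.03 to 290 ± 9.63 and 480 ± 8.53 (SD, n = 3 each).

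Cluster-5009.36578 was high at 600 µmol photons m−2 s−1 and low on either side. It measured 90.7, 90.4 and 89.2 CPM in LL, 304.9, 304.4 and 305.3 CPM in ML, and 92.3, 92.3 and 98.0 CPM in HL. The log2 fold change of ML over LL was 1.76 (SE 0.04, edgeR adjusted p = 5.55e-08), and that of HL over LL was 0.06 (SE 0.04, edgeR adjusted p = 0.186). Its level in FPKM, at 1134 implied bases, came to 82.2 ± 3.61 for LL, 286 ± 7.48 for ML and 74.4 ± 3.24 for HL (SD, n = 3 each).

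Cluster-5009.36173 was lowest at 600, with 188, 189 and 196 CPM in LL, 67.4, 63.8 and 68.5 CPM in ML and 248, 252 and 243 CPM in HL. Its log2 fold change of ML over LL was −1.52 (SE 0.04, edgeR adjusted p = 1.00e-07), at an implied length of 2091 bases and 94.2 ± 1.13 FPKM in LL (SD, n = 3). Cluster-5009.31713, at 415 implied bases, had 48.1, 43.8 and 45.8 CPM in LL and only 4.95, 5.77 and 6.49 CPM in ML (100 to 126 counts). Its log2 fold change was −3.0 (SE 0.09, edgeR adjusted p = 1.35e-07). With 59.1, 62.3 and 61.7 CPM in HL it was again above all LL libraries.

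**Figure D4:**
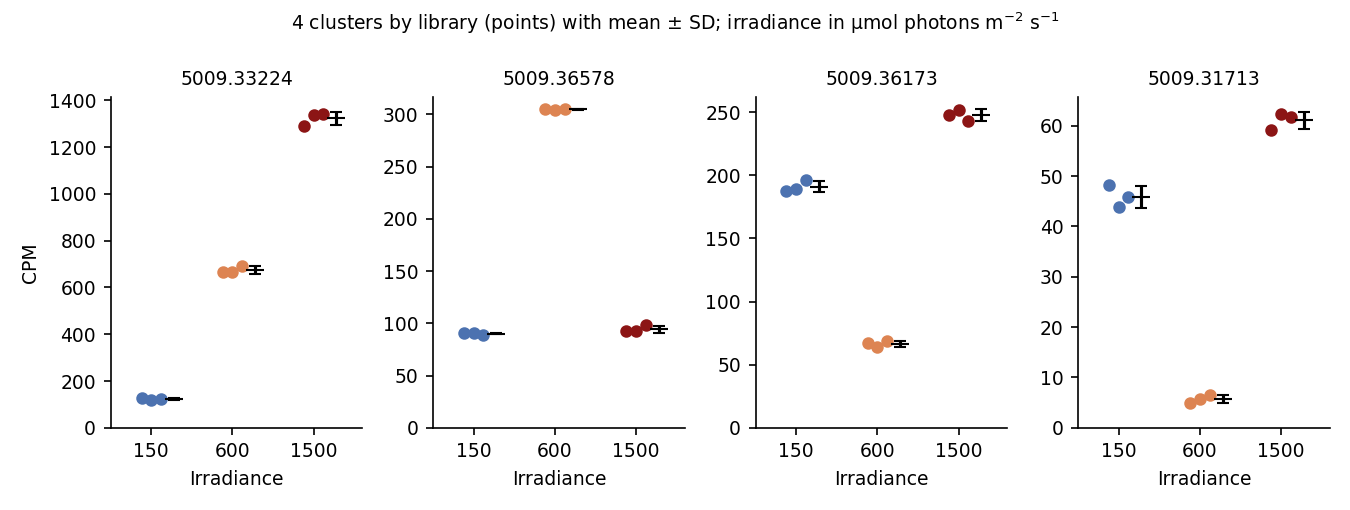
CPM by library (points) at 150, 600 and 1500 µmol photons m−2 s−1 for Cluster-5009.33224, Cluster-5009.36578, Cluster-5009.36173 and Cluster-5009.31713, with the mean and SD of each group of 3 beside the points; each panel has its own axis from 0. The first increases at both steps, the second is at 304 to 305 CPM only at 600, and the others are lowest at 600.

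The largest changes among such well-measured clusters were of similar size in both directions. The 10 largest rises had log2 fold changes from 2.10 to 2.91 and the 10 largest falls from −3.0 to −1.83, and all 20 were called in each alternative that tested them. Some had a wide spread. The standard error was 0.34 and 0.29 for the third and seventh rise and 0.46 for the third fall (log2). Its median was 0.08 among clusters with a mean of at least 10 CPM. The largest rise was from 2.87, 2.70 and 3.04 CPM in LL to 22.6, 21.7 and 20.3 in ML, or 7.50-fold, at 1065 implied bases, and this cluster was at 5.14, 4.85 and 4.54 CPM in HL. The third largest fall was set by the second LL library, with 42.7, 137 and 44.2 CPM in LL against 14.3, 15.5 and 17.9 in ML. Without that library its log2 fold change was −1.45 in place of −2.23.

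At 1500 µmol photons m−2 s−1 these clusters took different positions. Of the 10 that rose most, 7 had an HL mean between LL and ML, 1 above ML and 2 below LL. A wide example is the seventh, with the longest implied length of the 20, 8320 bases. It went from 29.1, 37.0 and 46.7 CPM in LL to 187, 184 and 116 in ML and was at 13.4, 9.58 and 5.95 CPM in HL. Of the 10 that fell most, 5 had an HL mean above LL, 1 between, and 4 below ML. The fifth, for instance, went from 43.7, 44.0 and 53.0 CPM in LL to 11.6, 11.03 and 11.5 in ML and 3.43, 3.93 and 2.77 in HL, while the tenth went from 17.5, 16.5 and 16.9 to 4.75, 5.07 and 4.43 and was at 38.1, 44.2 and 40.8 in HL. The comparisons of ML and of HL with LL share the LL libraries, so these positions are given as levels and not as an overlap of responses.

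**Figure D5:**
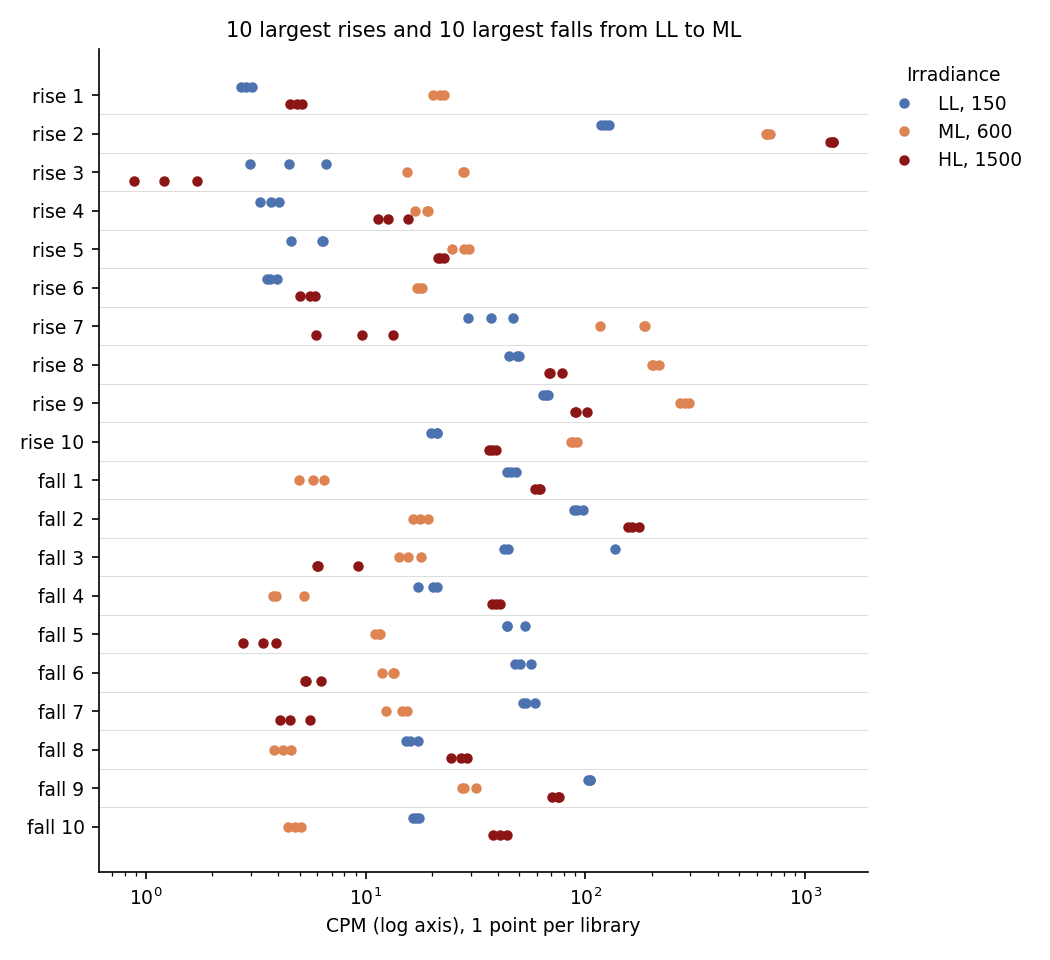
CPM (horizontal log axis) of the 10 largest rises and 10 largest falls from LL to ML among clusters with whole counts, a mean of at least 10 CPM and no overlap, 1 point per library, in LL (blue), ML (orange) and HL (dark red). The HL points lie between LL and ML for 7 of the 10 rises, and above LL for 5 of the 10 falls.

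The longest clusters had higher median changes than the shorter ones, at high and at low abundance. Length was taken from the ratio of count to FPKM and was available for 32065 clusters (98.9%), with a median of 1077 bases. As 897 clusters had a value below 100 bases and the shortest was at 2.64, it cannot be the full length of each cluster and serves only to order them. In the upper 5 abundance classes, clusters below 500 bases were higher in 347 and lower in 711 cases, and those from 500 to under 1000 bases in 739 and 1575. Clusters from 1000 to under 2500 bases were higher in 1871 and lower in 2723 cases, while those of at least 2500 bases were higher in 864 and lower in 722. The median log2 fold changes were −0.18, −0.20, −0.09 and 0.06 in this order of length. In the lower 5 classes they were 0.12, 0.30, 0.32 and 0.43, with 593 clusters higher and 474 lower in the shortest group and 165 and 39 in the longest. Precision was low there, with a median standard error of 0.35 in the shortest and 0.85 in the longest group (log2). These classes also include 835, 245, 61, 29 and 13 members that entered through a single group, from the lowest class upward. How far such members set the medians by length was not tested. The longest group of the upper classes had a median above 0, and the other 3 a median below 0, in each of the alternatives tried. Some of these medians were very near 0. The longest group was at 0.004 without a filter, and that from 1000 to under 2500 bases at −0.007 with the abundance trend removed. In the lower classes the median of the shortest group turned to −0.19 when the abundance trend of each library was removed, with 0.13 for the longest.

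At the level of whole libraries, the share of counts in the longest clusters was larger in ML. Clusters from 500 to under 1000 bases held 22.8%, 22.8% and 23.9% of the counts in LL and 21.2%, 20.5% and 21.1% in ML. Those of at least 2500 bases held 20.1%, 20.03% and 18.9% in LL and 21.5%, 22.4% and 21.4% in ML. The part held by clusters from 1000 to under 2500 bases was 49.6% ± 0.23 in LL and 49.4% ± 0.15 in ML (SD, n = 3 each), with overlapping libraries. By some measures the reads were spread over more clusters in ML, while the number of clusters holding 50% of the counts overlapped. That number was 573, 552 and 497 in LL and 539, 617 and 560 in ML (exact two-sided permutation p = 0.5). Its mean difference of 31.3 was 8.83 without the second ML library. The effective number of clusters, the exponential of the Shannon index, was 4286, 4225 and 3926 in LL and 4352, 4786 and 4436 in ML, and the first 10 clusters of a library held 5.56% ± 0.28 of the counts in LL and 4.93% ± 0.14 in ML (SD, n = 3 each). The first 1000 clusters held 58.5% ± 0.97 in LL and 58.3% ± 1.02 in ML, a difference of −0.24 percentage points that was 0.29 without the third LL library and 0.33 without the second ML library. Of the 12 measures compared, 8 separated the groups without overlap, each with an exact two-sided permutation p of 0.1 and an adjusted p of 0.15. Several of the 12 are parts of the same total or come from the same ranking of clusters, so the 8 are not independent.

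Clusters with decimals in their counts gained counts in ML. Those with a decimal in at least 1 of the 9 libraries held 57.6%, 57.4% and 57.1% of the counts in LL and 59.8%, 59.9% and 59.8% in ML, again without overlap (exact two-sided permutation p = 0.1). Such clusters were longer, with a median of 1369 implied bases among those included, against 673 for whole-count ones. Whether this gain is separate from that of the longest clusters was not tested. Among the 13179 clusters included that had whole counts throughout, 2557 were higher and 3343 lower, and among the 19231 others 3427 and 3470. At least 2-fold changes were called upward for 977 and 1874 of these, and downward for 500 and 839. The order of all calls among whole-count clusters turned when these were fitted on their own, with 3715 higher and 3656 lower. Rises of at least 2-fold outnumbered such falls in both kinds, and in the separate fit by 1335 to 512.

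A small set of clusters stood outside the main numbering. Of the clusters included, 32097 had identifiers that start with 5009, a number whose meaning the sources do not state. The other 313 were rare, with a median of 0.579 CPM in LL and 0.780 in ML. Of these, 53 were higher in ML and 17 lower, with a median log2 fold change of 0.56. These are 16.9% and 5.43% of the set, beside 18.5% and 21% of all clusters tested. Falls were also fewer than rises among rare clusters at large. In the lowest and second lowest abundance classes 8.98% and 9.19% were higher and 2.22% and 3.46% lower, with median log2 fold changes of 0.36 and 0.30. These values include 835 and 245 members that entered through a single group. Over all clusters listed, identifiers with another number held 0.104%, 0.107% and 0.0974% of the counts in LL and 0.148%, 0.183% and 0.161% in ML, and 0.108% ± 0.0053 in HL (SD, n = 3). The second ML library, with the most clusters that no other library held, was the highest. Without it, 33 of the 313 were higher and 11 lower, and with the abundance trend of each library removed 29 and 27. Whether the rare clusters of that library bear on this count was not tested.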

How the data were processed

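For each library the authors deposited a table of clusters with estimated counts and FPKM, per the file headers. These estimated counts are not scaled to depth or length, and had decimals in 27.9% to 31.0% of the clusters of a library, per the deposited values. The FPKM values were scaled by the authors to length and depth, per the file headers. RNA was extracted with Trizol and 1.5 µg per sample entered NEBNext Ultra library preparation, per the labels' protocols. DESeq 1.10.1 is named in the submitters' processing notes, and the assembler, aligner, counter and reference were not given in the sources used here.

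Groups were taken from the sample titles. Estimated counts were rounded and clusters with at least 10 counts in 3 of the 6 LL and ML libraries were fitted in edgeR 4.0.16 (R 4.3.3) with TMM factors and a robust quasi-likelihood model on all 9 libraries, with group as the only term and 6 residual degrees of freedom. P-values of ML against LL were adjusted by Benjamini-Hochberg over all 32410 clusters, with a threshold of 0.05. A standard error is the log2 fold change divided by the square root of F. Library-level measures were compared by exact two-sided permutation tests. Implied length used values of at least 0.5 FPKM. Compared by chi-square of their counts, values per degree of freedom were 6.34 to 10.8 between libraries of a group and 61.2 to 71.1 between groups, so that no library appeared to have been deposited more than once. The fits were tested on simulated data.

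Named clusters had to be called, to have a mean of at least 10 CPM, whole counts in all 9 libraries and no overlap between LL and ML, and were the 2 rising and 2 falling with the smallest p. Others are given by rank of mean CPM or of fold change. The clusters, classes and tests were chosen with earlier results of these data known. Alternatives used limma 3.58.1 on FPKM, DESeq2 1.42.0, other scalings and filters, the 6 libraries alone, a term for replicate number and the removal of single libraries.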

Additional observations from a re-analysis of the deposited data

How the results depend on the processing

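Each of the 4 named clusters kept its direction and call in every alternative, and the counts of clusters called stayed within 1.5 times those reported except as follows. In the lowest abundance class, with 291 higher and 72 lower, limma gave 475 and 144 on log2(FPKM + 0.1) and 640 and 165 on log2(FPKM + 1), removal of each library's abundance trend 101 and 173, a filter on a mean of at least 10 counts 153 and 42, the fit without a filter 138 higher, and a replicate block 180 and 47. Leaving out single libraries gave 141 to 218 higher and 49 to 115 lower. With log2(FPKM + 1), 876 clusters were at least 2-fold lower and 1559 of those below 500 bases were higher, against 612 of these without a filter. Among clusters with whole counts only, which leaves 13179 tested, 3715 were higher and 3656 lower (1335 and 512 at least 2-fold), with 362 and 683 in the highest class, 5 and 41 of the 100 most abundant, and 317 and 221 of at least 2500 bases. In the main fit 2557 of the same 13179 were higher and 3343 lower, so the separate fit called more of them. The edgeR adjusted p of Cluster-5009.33224 was 1.03e-28 in that fit, against 2.27e-08 in the main one. The causes of these shifts were not tested. Of the 313 clusters with other leading numbers, 53 were higher and 17 lower, against 96 and 21 with log2(FPKM + 1), 33 and 10 without a filter, 29 and 27 with the trend removed, 39 and 11 with the block, and 33 to 44 and 10 to 15 when single libraries were left out. The share of rises among all calls was 46.8%, and 40.6% to 53.1% in the alternatives. Rises outnumbered falls with upper-quartile factors, library totals alone, both limma fits (6644 higher and 6530 lower on log2(FPKM + 0.1)) and whole-count clusters only. The difference in the part held by the first 1000 clusters ranged from −0.66 to 0.33 when single libraries were left out.

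The replicate numbers did not pair the libraries: same-numbered LL and ML libraries deviated from their group means with correlations of −0.08, −0.09 and 0.07 across 10514 clusters. The fit with the replicate block called 5187 clusters higher and 6253 lower. In the lowest class the median standard error was 0.63 and the median size of a called change 2.15, both on the log2 scale.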
